A study of Mus musculus with 5 samples.

Results

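PABPC1, the major cytoplasmic poly(A) binding protein, left deletion marks at 895 bases of protein-coding sequence in MEL cells, a mouse erythroleukemia line. These were the coding members of a deposited list of 11907 deletion sites, single bases at which reads of crosslinked RNA lack a nucleotide, and made up 7.52% of it (exact 95% interval 7.05% to 8.0%). A site was taken as coding when its base lay, on the same strand, in coding sequence of the GENCODE M21 basic annotation of mm10 and in no annotated 3' or 5' UTR, and the stop codon was counted as coding. The sites fell in 512 genes. The list came from 3 CLIP-seq samples of MEL cells, described as biological triplicates, in which ultraviolet light fixed PABPC1 to RNA and the complexes were recovered with an antibody. The authors deposited those 3 samples as 1 pooled list. The mRNA level of each gene came from 2 mRNA-seq samples of polyadenylated RNA from the same line, deposited as 1 RPKM value a gene (reads scaled by gene length and sequencing depth). No sample lacking PABPC1 or the antibody was analysed here, so no background level of deletions can be given.

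PABPC1 binds adenosine-rich RNA through RNA recognition motifs, coats the poly(A) tail, contacts the initiation factor eIF4G and the release factor eRF3, and affects both translation and mRNA decay. Translating ribosomes move along the coding sequence, and the protein is better known for binding the tail and 3' UTRs than the reading frame. Reverse transcriptase often skips the nucleotide that still carries a crosslinked amino acid, so a deletion places the contact more closely than the read does.

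With the replicates pooled there was 1 value a site, so shares are given with exact binomial intervals and medians with order-statistic intervals, and both cover counting error only. No test between samples could be made. Expected shares were computed over every base of the same coding sequences, each site weighing its own transcript. The authors labelled both the deletion list and the RPKM values as day 0, and no other day was analysed here. Of 8 erythroid marker genes, 8 had an RPKM of at least 1 (20.1 to 428), against 0 of 4 T and B cell and 0 of 4 myeloid markers. Among 6 fibroblast markers, Thy1 (RPKM 65.3) and Pdgfrb (2.60) passed that level.

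The coding sites recurred in 3 kinds of sequence: the hexamer ATATAA, a run of T followed by A, and a run of A followed by T. Of 673 deletion events, 363 (53.9%, 50.1% to 57.8%) lay in such a run or within 20 nt of ATATAA. In counting events, adjoining bases with equal counts are joined and equivalent placements are counted once. The 3 kinds were chosen with results of these data known, and no expected share of the 3 together was computed. Each kind is set beside all its coding occurrences below. Runs of T followed by A held 163 events (24.2%, 21% to 27.6%), ATATAA lay near 109 (16.2%, 13.5% to 19.2%) and runs of A followed by T held 93 (13.8%, 11.3% to 16.7%). The windows below are examples, shown for many deletions or a clear form of each kind. Among runs of T followed by A, Ube2m (135 deletions) and Gml2 (85) had more deletions than those shown. Each is the annotated transcript sequence (mm10), 5' to 3', with the codon that holds the listed base in capitals.
Mcts1, ATATAA: tggcatatgaagACAtataaatgagcctca
Creg1, ATATAA: cccctgtgtgttCATataatgatgtcggga
Serbp1, ATATAA: aagccagcaaatGATataacatctcaactg
Luc7l3, ATATAA: cgaaagtcatatAAGcacaggagcaaaagt
Rps20, T run: tcagccatggcaTTTaaagataccggaaag
Cox4i1, T run: taccgcatccagTTTaacgagagcttcgcc
Eif3l, T run: tatggggatttcTTTatccgacagatccac
S100a10, A run: ctggctgtggacAAAataatgaaggacctg
Eif5a, A run: aaggccatggcaAAAtaaccggcttccagg
Rpl13, A run: gatgttgaaaagAAAaaataattctgtgtt
Cct5, AATAAA at the stop codon: ggagaatctgaaGAAtaaactgtaccattt
Mcur1, ATATAA at the stop codon: cgcctgtggataTAAtaaagtgtctattta
Eif3g, stop codon: ccatcaacgaatTAAtaagacatctgctac

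The site with the most deletions lay in Mcts1, which encodes a translation re-initiation and ribosome recycling factor, at chromosome X base 38613293 on the plus strand. In the last exon, 9 nt before the end of the coding sequence, 239 of 586 tags (40.8%, 36.8% to 44.9%) lacked a base. The first base of ATATAA was the one listed. Eif5a, the hypusine-containing factor that helps the ribosome join difficult peptide bonds, had 198 deletions in 582 tags (34.0%, 30.2% to 38.0%) at chromosome 11 base 69917442 on the minus strand. That base ends the last lysine codon before the stop codon. Eif3g, a subunit of the initiation factor eIF3, had 187 deletions at the last base of its stop codon (chromosome 9 base 20894427, minus strand). Its coverage of 4981 tags was the highest of any coding site, so the deleted share there was 3.75% (3.24% to 4.32%). All 3 bases lay within the last 10 nt of their reading frames.

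Other leading sites were far from the stop codon. Luc7l3, a U1 snRNP-associated splicing factor, had 141 deletions in 349 tags (40.4%, 35.2% to 45.8%) 392 nt before the end, in exon 9. Eif1ax, a start-codon scanning factor, had 136 in 495 tags (27.5%, 23.6% to 31.6%) in a glycine codon 273 nt before the end. Ube2m, the NEDD8-conjugating enzyme, had 135 in 766 tags (17.6%, 15.0% to 20.5%) in a tyrosine codon. That base ends a run of T followed by A. Creg1, a secreted glycoprotein, had 118 in 327 tags (36.1%, 30.9% to 41.6%) 217 nt before the end. Serbp1, a ribosome-associated mRNA binding protein, had 102 in 264 tags (38.6%, 32.7% to 44.8%) 178 nt before the end. The deletions at these sites, each above 100, contrast with a median of 11 (range 3 to 239) and a median coverage of 90 tags over all coding sites. Surf4, a cargo receptor of the endoplasmic reticulum, had 88 in 935 tags, Gml2, a gene of the Ly6 family, 85 in 584 tags, and Lgals1, the lectin galectin-1, 84 in 765 tags. Only 15 of the 895 sites held at least 100 deletions.

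Among sites covered by at least 100 tags, the largest deleted share lay in S100a10, the annexin A2 partner, with 44 of 107 tags (41.1%, 31.7% to 51%) in an internal lysine codon. Mki67, the proliferation marker Ki-67, had 41 of 105 tags (39.0%, 29.7% to 49.1%) 1552 nt before the end of its long frame. The intervals of these sites overlap those of Mcts1, Luc7l3 and Serbp1, so the order of the leading shares is not resolved.

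Most coding marks could be placed on the RNA only to within a few bases. Of 258 pairs of adjoining listed bases, 210 (81.4%) had equal deletion counts, as when 1 read lacks both bases. Joining such pairs left 689 deletions. Moving each to its most 5' equivalent base, and counting each place once, merged 16 more and gave the 673 deletion events. Of 205 events of 2 bases, 134 (65.4%) removed A and T in that order, 21 removed a pair of A and 17 removed G and T. Of the 1-base events, 397 lay in a run of the same base, where a deletion at any base of the run gives the same read, and 71 had a single possible place. In all, 813 of 895 sites (90.8%) had a placement that the read alone does not fix.

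The convention that settled this placement ran with the genome strand. At coding ATATAA, in genes on the plus strand the listed base was the first of the hexamer at 43 of 88 sites and the one after it at 40. In genes on the minus strand it was the fourth at 50 of 106 sites and the one after it at 50. Removing either AT of ATAT leaves the same read. In TTT codons, all 52 plus-strand sites were at the first base and 47 of 48 minus-strand sites at the last. Codon, residue and frame values therefore depend on the convention. They are given below as listed and, for those that moved most, by strand and with each event at its most 5' equivalent base.

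Among hexamers, ATATAA was the one with the highest marked share in coding sequence. It lay within 20 nt of 194 sites (21.7%, 19.0% to 24.5%), against 1.13% of all windows of that length on the transcript strand of the same coding sequences, 19.1 times as many. The hexamer was close by: narrowing the window to 10 nt kept 21.2% of sites. AATAAA, the hexamer of the polyadenylation signal, lay near 70 sites (7.82%, against 1.27%), and AAAAAA near 82 (9.16%, against 1.91%). Together 306 sites (34.2%) had at least 1 of the 3 hexamers nearby, against 4.11% of windows. At the 8755 sites in 3' UTRs the order differed: AATAAA lay near 33.8%, ATATAA near 12.2% and AAAAAA near 12.0%. By listed base, the ATATAA share of coding sites was thus above that of 3' UTR sites, whose interval was 11.6% to 12.9%. Because an ATATAA mark is often listed as 2 bases, the coding share was 15.8% (13.0% to 18.9%) with 1 site a run. The 3' UTR share was not computed with 1 site a run, so the regions are compared by listed base only.

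The hexamers themselves were then counted in the 5028 genes with RPKM of at least 20 and a complete start codon. Of 964 ATATAA in their coding sequences, 88 (9.13%, 7.39% to 11.1%) had a coding site within 20 nt, in 84 genes. This was the highest share of all 4096 hexamers, for which the share over all positions was 0.226%. The next were AATATA (5.15%), CATATA (4.90%), GATATA (4.61%) and TATAAA (3.36%), which overlap ATATAA by up to 5 letters. AAAAAA ranked 17 with 1.95% and AATAAA ranked 44 with 1.4%, while TTTTTT had 0.357%. In the 3' UTRs of the same genes 14.3% (12.8% to 15.8%) of ATATAA had a site, so by occurrence the coding share was the lower one, the opposite of the order by sites. For AATAAA the 3' UTR share was 19.6% and for AAAAAA 13.9%, so these 2 hexamers differed between the regions far more than ATATAA did. Overlapping matches were counted separately. Length and position of the 3' UTR hexamers were not matched to the coding ones.

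Coding ATATAA was marked more often where mRNA was more abundant and near the stop codon. Of 154 occurrences in genes with RPKM of at least 100, 30 (19.5%, 13.5% to 26.6%) had a site, against 58 of 810 (7.16%, 5.48% to 9.16%) in genes between 20 and 100. In the last 100 nt of coding sequence 18 of 57 (31.6%, 19.9% to 45.2%) had one, against 70 of 907 elsewhere (7.72%, 6.07% to 9.65%). The base before the hexamer also went with the share: 10.1% after A, 12.0% after C and 10.3% after G, but 4 of 177 (2.26%, 0.619% to 5.68%) after T. The base after it showed overlapping intervals, from 6.13% for G to 10.2% for T.

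**Figure D1:**
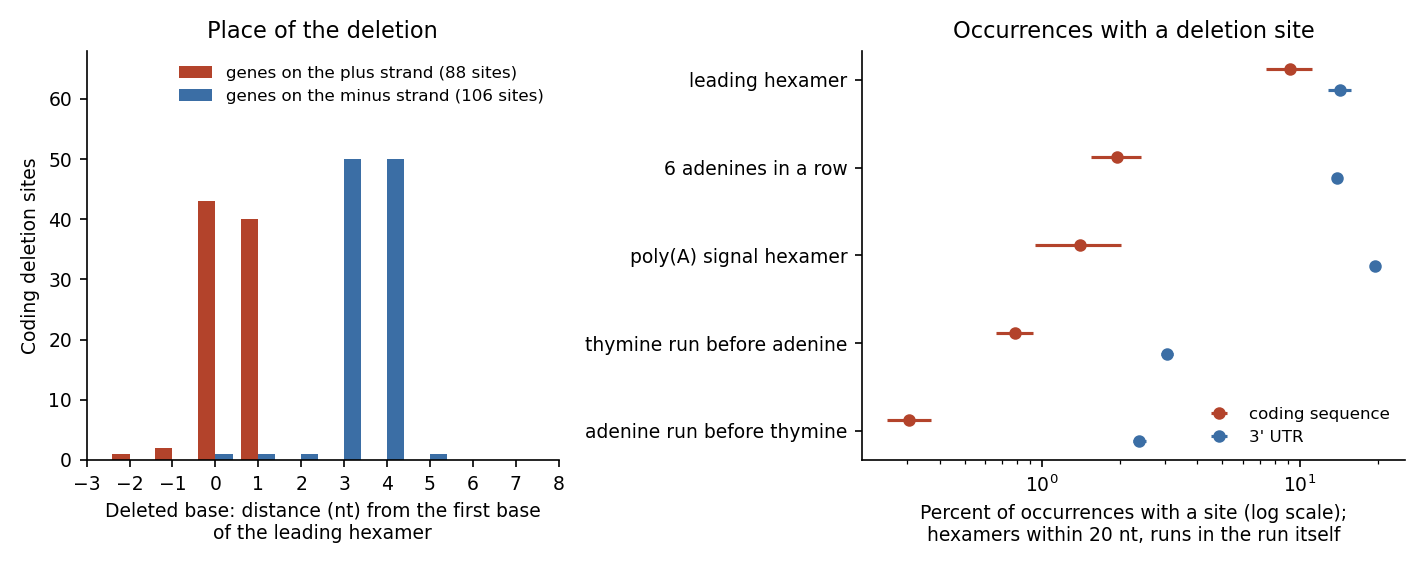
Left, the number of coding deletion sites at each distance (nt) from the first base of the leading hexamer (ATATAA), by genome strand: 88 plus-strand sites sit on the first base and the one after it and 106 minus-strand sites on the fourth and the one after it, apart from a few. Right, the percent (log scale) of each sequence element's occurrences with a deletion site, within 20 nt for the 3 hexamers and in the run itself for the 2 kinds of run, in coding sequence and in 3' UTRs of 5028 genes, with exact 95% intervals: the leading hexamer has 9.13% against 14.3%, and every other element differs more between the regions.

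The reading frame restricts where ATATAA can stand, since its last 3 letters spell a stop codon. Of 92 marked occurrences inside reading frames, 38 began at the second codon position, where the middle codon is ATA (isoleucine), and 54 at the third, where TAT (tyrosine) is followed by a codon that starts AA. In the 5028 expressed genes, 33 of 436 occurrences in the first of these frames (7.57%, 5.27% to 10.5%) and 50 of 512 in the second (9.77%, 7.34% to 12.7%) had a coding site within 20 nt, with overlapping intervals. The residues spelled most often across a marked hexamer were glutamate, tyrosine and lysine (10 of 92). Where ATATAA overlapped the stop codon in these genes, 6 of 18 (33.3%, 13.3% to 59.0%) had a coding site within 20 nt, close to the 31.6% of the last 100 nt as a whole. An example is Mcur1, a mitochondrial calcium uniporter regulator, with 82 deletions in 509 tags (16.1%, 13.0% to 19.6%). For AATAAA, 12 of 67 that overlapped a stop codon had one (17.9%, 9.61% to 29.2%), against 3 of 83 (3.61%, 0.752% to 10.2%) of those lying whole in the last 100 nt. Cct5, a subunit of the CCT chaperonin, had 59 of 676 tags (8.73%, 6.71% to 11.1%) at such a place.

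Runs of T were a second class of mark. In 199 events, in 191 genes, a single base was missing from a run of 3 or more T. Of the 199, 0 lay within 20 nt of ATATAA, near the 1.13% of all windows in coding sequences with sites. In 163 of these runs (81.9%, 75.8% to 87.0%) the next base was A, against 26.1% of the 9613 such runs in the same coding sequences. The run was mostly short: 159 held exactly 3 T, 79.9% against 74.7% of all such runs. These events had a median coverage of 41 tags and a median deleted share of 24.2% (21.5% to 29.6%), against 94 tags and 16.7% (12.8% to 19.3%) for the movable 2-base events. Rps20, a protein of the small ribosomal subunit, had 40 deletions in 132 tags (30.3%, 22.6% to 38.9%) in a phenylalanine codon, its codon 3. Cox4i1, a subunit of cytochrome c oxidase, had 20 in 100 tags (20.0%, 12.7% to 29.2%) in the same kind of codon. Eif3l, another eIF3 subunit, had 83 in 449 tags (18.5%, 15.0% to 22.4%).

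Runs of A were another class. Of 98 events with a base missing from a run of 3 or more A, 93 runs (94.9%, 88.5% to 98.3%) were followed by T, against 29% of 16737 such runs in the same coding sequences. Within 20 nt, 26 of the 98 (26.5%) had AATAAA and 3 had ATATAA. Of these events 35 (35.7%) fell in the last 50 nt of the frame, against 41 of 197 (20.8%) for movable 2-base events. Renbp, the renin binding protein, had 61 deletions in 691 tags (8.83%, 6.82% to 11.2%) in its last lysine codon, directly before the stop codon. In the 5028 genes, runs of T followed by A had a site in 0.786% of coding and 3.05% of 3' UTR occurrences, against 0.0554% and 0.620% where another base followed. Runs of A followed by T had one in 0.305% and 2.38%, against 0.0163% and 0.234%. Both regions thus showed a higher share with the A or T that ends the run than without it.

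Codons made only of A and T held 542 of the 895 sites (60.6%), against 11.8% of codon bases in the same coding sequences, 5.13 times as many. The share was 50.1% on the plus strand, 72.3% on the minus strand and 45.6% with each event moved to its most 5' equivalent base. As listed, ATA held 100 sites (11.2%, 9.18% to 13.4%), 13.4 times its share of coding bases. TTT also held 100 sites (6.13 times), TAT 94 (7.99 times), AAT 86 (5.22 times) and AAA 85 (3.01 times). The ATA ratio was 8.92 on the plus strand, 18.5 on the minus strand and 6.30 at the most 5' base, and that of TAT 6.53, 9.51 and 1.86. TTT, AAT and AAA moved less, with 7.83, 5.15 and 2.95 at the most 5' base. Among stop codons TAA held 25 sites, 21 times its share as listed and 11.1 times at the most 5' base. For the bases as listed, with the letter held fixed, the ratio was 7.58 for ATA, 4.18 for TAT and 2.97 for AAT. It was 2.90 for TTT, 1.95 for AAA and 11.7 for TAA. The ratio of 5.13 for A and T codons was computed without holding the letter. AAG, the other lysine codon, held 11 sites, 0.286 times its share, and stayed between 0.202 and 0.375 in these settings, so the 2 lysine codons differed in each. TAC, the other tyrosine codon, held 9 sites, all on the minus strand.

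By residue, and again as listed, isoleucine was encoded at 131 sites (14.6%, against 4.84% of coding bases), phenylalanine at 117 (13.1%, against 3.62%), tyrosine at 103 (11.5%, against 2.74%), lysine at 96 (10.7%, against 7.46%) and asparagine at 89 (9.94%, against 3.8%). Serine was encoded at 10 sites (1.12%, against 7.16%), proline at 4 (0.447%, against 5.26%) and leucine at 41 (4.58%, against 9.15%). With each event at its most 5' base, phenylalanine was encoded at 16.2% (against 3.6%), asparagine at 9.36% (against 3.78%) and isoleucine at 8.62% (against 4.79%) of the 673. Tyrosine was then encoded at 2.97% (1.82% to 4.55%), an interval that includes its expected 2.71%, so its ratio depended on the placement. The codon after the listed base was lysine at 17.1% (against 7.46%), isoleucine at 14.9% (against 4.84%) and tyrosine at 12.8% (against 2.74%) of 868 sites. The listed base itself was T at 416 sites and A at 394, with 50 G and 35 C, so 90.5% of sites were A or T where the coding sequences had 50.3%. For the bases as listed, with the letter held fixed, the ratios were 2.64 for tyrosine, 2.02 for phenylalanine, 1.89 for isoleucine and 1.12 for lysine.

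**Figure D2:**
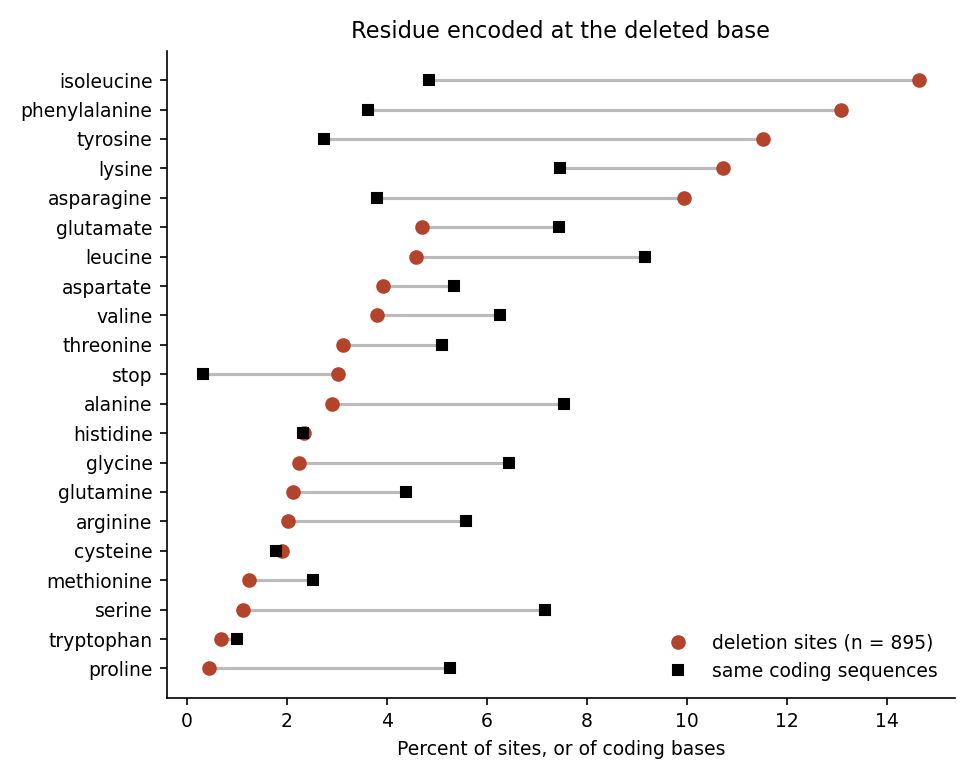
Percent of the 895 coding deletion sites, as listed, in codons of each residue (circles) beside the percent of bases of the same coding sequences in such codons (squares). Isoleucine, phenylalanine, tyrosine and asparagine lie to the right of their squares, and serine, proline, leucine and alanine to the left. Tyrosine is near its expected share, 2.97% against 2.71%, once each event is moved to its most 5' base.

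Within the codon, 304 sites (34.0%) were at the first position, 267 (29.8%) at the second and 324 (36.2%) at the third. Bases of the same letters in the same coding sequences would give 29.7%, 38.5% and 31.9%. Which of positions 1 and 3 led changed with the strand: 38.1% and 31.9% on the plus strand, 29.4% and 41% on the minus strand. The 79 events that allow only 1 placement gave 29.1%, 27.8% and 43.0%, with intervals of 18.3% to 39.1% for the second position and 31.9% to 54.7% for the third. The first of these includes 38.5%, and the listing at an end of each run also shapes the second position, which held 0 of the 100 TTT sites. No reading-frame preference could be told apart from the placement convention.

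Sites crowded toward the stop codon. The last 50 nt of coding sequence held 213 sites (23.8%, 21% to 26.7%) in 140 genes, against 5.31% expected, and the last 10 nt held 98 (10.9%, against 1.06%). With the listed letter held fixed the expected share of the last 50 nt was 5.76%, a ratio of 4.13. The last 0.1 of the frame's length held 329 sites (36.8%), and the first 0.1 held 40 (4.47%). The median site lay 219 nt before the end of the frame and at 0.771 of its length. In the 5028 expressed genes the density was 0.660 sites per 10 kb of coding bases at 100 nt or more before the end, 7.76 in the last 50 nt and 18 in the first 50 nt of the 3' UTR. In steps of 10 nt it lay between 2.39 and 4.38 in each bin from 100 to 31 nt before the end of the stop codon. It was 6.76 at 30 to 21 nt, 7.76 at 20 to 11 nt and 17.5 in the last 10 nt. The next 10 nt, the first of the 3' UTR, had 10.4, and the bin from 20 to 29 nt had 24.6.

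**Figure D3:**
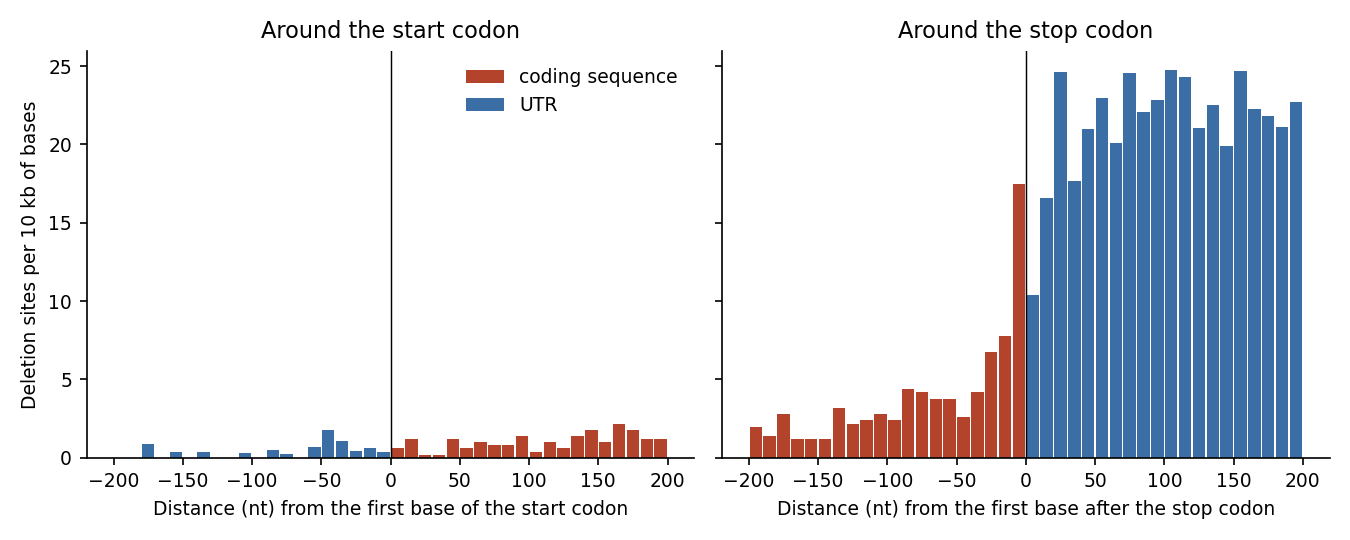
Deletion sites per 10 kb of bases in bins of 10 nt around the start codon (left) and the stop codon (right), over 5028 genes with RPKM of at least 20, with coding bins in red and UTR bins in blue. Density is low on both sides of the start codon and reaches 17.5 in the last 10 nt of coding sequence, beside 10.4 in the first 10 nt after the stop codon.

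The end zone stood out with long and with short 3' UTRs. Genes with a site in the last 50 nt had a median 3' UTR of 553.5 nt (453 to 743), against 840 nt (631 to 1055) for genes whose coding sites were all elsewhere, and these intervals overlap. Over the 5028 genes with RPKM of at least 20 the median was 800 nt (769 to 845), an interval above that of the first group. A 3' UTR under 300 nt was found in 33.6%, 25.5% and 21.8% of these groups in turn. Transcripts with a 3' UTR of at least 300 nt still had 20.7% of their coding sites in the last 50 nt, 4.57 times the expected share, and those with a shorter one had 30.9%, 4.35 times. The last exon held 345 sites (38.5%, against 16.9% expected). Within 20 nt of an exon junction there were 139 sites (15.5%, 13.2% to 18.1%), against 26.5% expected.

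Counted by listed base, the end zone also differed in its sequence. ATATAA lay near 26 of 213 sites (12.2%, 8.13% to 17.4%) in the last 50 nt, against 151 of 572 (26.4%, 22.8% to 30.2%) at 100 nt or more before the end. An ATATAA mark is often listed as 2 bases, so these bases are not independent and the intervals are too narrow. The zones were not compared by event. AATAAA lay near 11.7% (7.74% to 16.8%) and 7.52% (5.49% to 9.99%), whose intervals overlap, and near 1.82% (0.221% to 6.41%) of the 110 sites at 50 to 99 nt. The median deleted share was 9.60% (7.79% to 11.3%) at a median coverage of 172 tags in the last 50 nt, and 19.2% (17.6% to 21.3%) at 65 tags at 100 nt or more before the end. At matched coverage the zones lay close, with 18.2% and 19.3% from 30 to 99 tags and 8.20% and 8.78% from 100 to below 300.

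As listed, stop codons held 27 sites in 22 genes, 3.0% of sites against 0.319% expected, 9.47 times as many (6.26 times with the listed letter held fixed). This count depends on the placement convention. TAA held 7 of 473 plus-strand and 18 of 422 minus-strand sites. With each event at its most 5' base it held 10 of 673 (1.49%, 0.715% to 2.72%), against 0.133% expected. The marks of Mcur1, Mrps24, Gins4, Npm1 and Mbd3 can equally be placed in the codon before the stop codon. The same holds for the T runs of Rap1b, Pdia4, Vps35, Slc16a10 and Marf1 and for the G and T pair of 2610002M06Rik. Dbi has the same ATATAA at its stop codon as Mcur1. In 20 of the 22 genes the stop codon was TAA, in 1 TGA (Lmf1, a lipase maturation factor) and in 1 TAG (Mbd3, of the NuRD complex). TAA ended 54.3% (45.7% to 62.7%) of the 140 frames with a site in the last 50 nt, 33.9% (29.3% to 38.8%) of the 398 frames with a coding site elsewhere, and 24.9% of 10202 frames of genes with RPKM of at least 1. Besides Eif3g and Mcur1, the most deletions were in Mrps24, a mitochondrial ribosomal protein, with 57 of 281 tags (20.3%, 15.7% to 25.5%), and Gins4, of the replicative helicase, with 48 of 266 (18%, 13.6% to 23.2%). Both stop codons stand inside ATATAA. Npm1, the nucleolar chaperone nucleophosmin, had 17 of 82 tags (20.7%, 12.6% to 31.1%) and Gmps, GMP synthase, 14 of 63 (22.2%, 12.7% to 34.5%).

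The start of the frame was the opposite case. The first 50 nt held 17 sites (1.90%, 1.11% to 3.0%), against 5.31% expected, 0.358 times as many, and the first 100 nt held 40 (4.47%, against 10.6%). The leading genes there encode ribosomal proteins: Rps9, with 52 deletions in 300 tags (17.3%, 13.2% to 22.1%) in its codon 8, Rps20 in its codon 3, and Rpl8, with 27 in 282 tags (9.57%, 6.40% to 13.6%) in its codon 15. These 3 sites each lay in a run of T. Rpl8 also had a pair of G and T in its codon 3, with 19 deletions in 576 tags at its first base.

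Coding sites had a higher deleted share than 3' UTR sites, 16.1% (14.5% to 17.6%) against 10.4% (10.1% to 10.7%) as medians, and lower coverage, 90 against 155 tags. At matched coverage the shares lay close. The medians were 47.4% and 48.0% below 30 tags, 19.0% (18.2% to 20.5%) and 17.5% (17.1% to 18%) from 30 to 99 tags, 8.53% and 8.62% from 100 to below 300, and 4.74% and 4.43% at 300 or more. The list itself ties share to coverage, because the lowest number of deletions it held was 3 below 30 tags, 6 from 30 to 199 and 9 at 200 or more. In 318 of the 512 genes (62.1%) the 3' UTR held a site as well. The best coding site had more deletions than the best 3' UTR site in 67 of them, fewer in 240 and as many in 11, with median coverages of 84 and 260 tags.

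**Figure D4:**
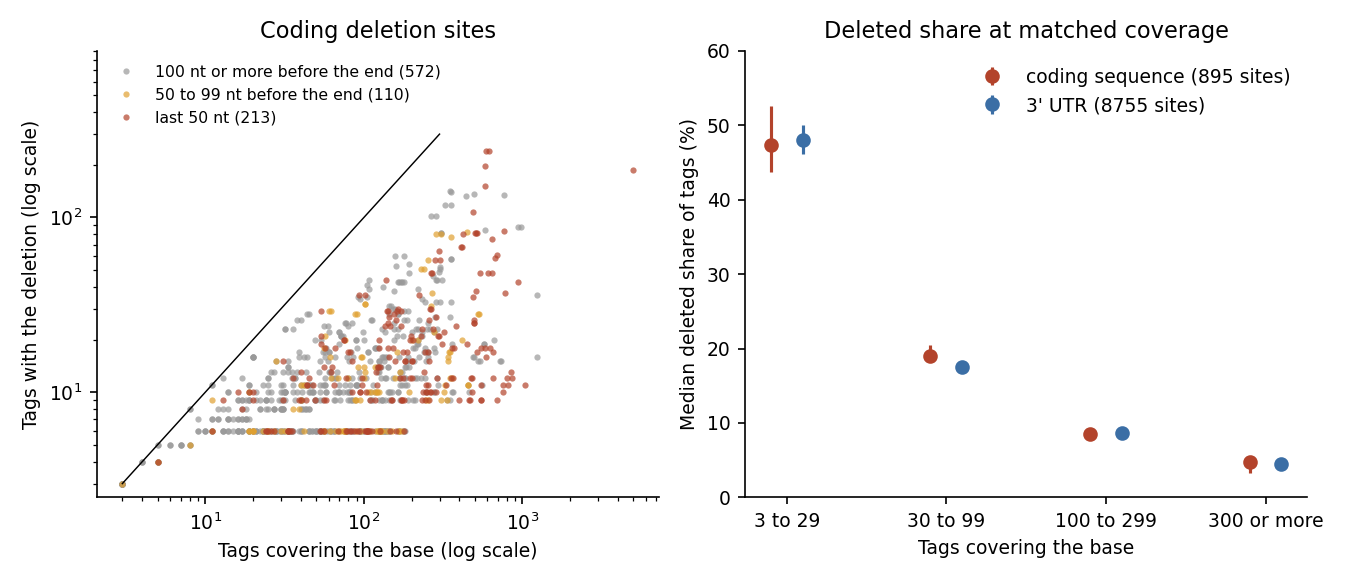
Left, tags with the deletion against tags covering the base for the 895 coding sites (log scales; the line marks a deleted share of 100%), coloured by distance from the end of the frame. Right, the median deleted share in 4 classes of coverage with order-statistic 95% intervals, where coding and 3' UTR sites lie close in every class, 47.4% and 48.0% in the lowest.

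Of 10211 protein-coding genes with RPKM of at least 1, 504 (4.94%) held a coding site. The share went with mRNA level: 0.304% of genes with RPKM from 1 to 5, 1.50% from 5 to 20, 5.98% from 20 to 100 and 18.8% (16.6% to 21.3%) at 100 or more. Genes of the translation machinery stood above 4.94%. Aminoacyl-tRNA synthetases, which charge tRNAs, had 7 of 20 (35.0%, 15.4% to 59.2%), elongation and release factors 5 of 13 (38.5%, 13.9% to 68.4%), initiation factors 12 of 52 (23.1%, 12.5% to 36.8%) and cytosolic ribosomal proteins 17 of 84 (20.2%, 12.3% to 30.4%). Their median RPKM were 161.6, 144.4, 102.4 and 85.2, against 19.6 over all 10211 genes, and all 4 intervals include the 18.8% of genes at RPKM of 100 or more. Proteasome subunits had 8 of 37 (21.6%, 9.83% to 38.2%, median RPKM 196.8). Glycolytic enzymes had 3 of 15 (20.0%, median 119.2), with an interval of 4.33% to 48.1% that includes 4.94%. Chaperones had 12 of 68 (17.6%, 9.46% to 28.8%) at a median of 28.5, and 11 of these 12 were among the 27 chaperones with RPKM of at least 100 (40.7%, 22.4% to 61.2%). Among genes at that level, ribosomal proteins had 15 of 37 (40.5%, 24.8% to 57.9%), initiation factors 10 of 27 (37.0%, 19.4% to 57.6%), aminoacyl-tRNA synthetases 7 of 16 (43.8%, 19.8% to 70.1%) and proteasome subunits 7 of 27 (25.9%, 11.1% to 46.3%), beside the 18.8% of all genes. mRNA levels above 100 were not matched further.

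As for glycolytic enzymes, the intervals of the other groups included the share of all genes. Erythroid genes had 1 of 39 (2.56%, 0.0649% to 13.5%, against 4.94%) at a median RPKM of 79.0, although 24 of the 39 had a 3' UTR site. At RPKM of at least 100 they had 0 of 15, an interval of up to 21.8% that includes 18.8%. The 1 gene was Urod, the heme-synthesis enzyme uroporphyrinogen decarboxylase, with 6 of 25 tags (24.0%, 9.36% to 45.1%). Cell cycle and replication genes had 4 of 44 (9.09%, 2.53% to 21.7%) at a median of 89.4, and hnRNP and SR proteins 4 of 32 (12.5%, 3.51% to 29%) at 128.2. Replication-dependent histones, whose mRNAs lack a poly(A) tail, had 2 of 46 (4.35%, 0.531% to 14.8%). Their median RPKM was 6.14, but RPKM came from polyadenylated RNA and may not give the level of these mRNAs. Histones were therefore not set beside other genes of like RPKM. Of 30 genes for poly(A) binding and deadenylation, 2 had coding sites (6.67%, 0.818% to 22.1%). Pabpc1 itself had 10 deletions in 361 tags (2.77%, 1.34% to 5.04%) at codon 450, and Cnot1, the CCR4-NOT scaffold, 10 in 145 (6.90%, 3.36% to 12.3%) at an ATATAA in codon 849.

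**Figure D5:**
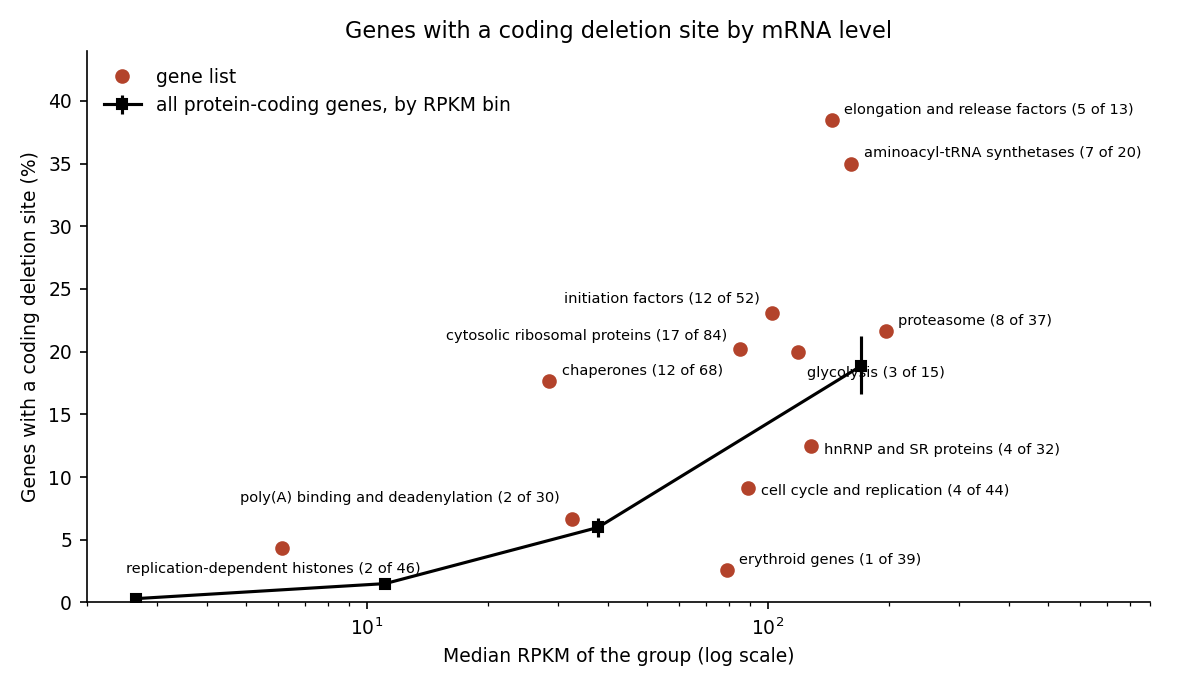
Percent of genes with a coding deletion site against the median RPKM of the group (log scale), for all protein-coding genes in 4 RPKM bins (squares, exact 95% intervals) and for 12 gene lists (circles, genes with a site of genes in the list). The binned share goes from 0.304% to 18.8%, and the erythroid list, at 1 of 39, has the lowest share of the 12. RPKM are from polyadenylated RNA, so the place of the histone list on this axis may not give its mRNA level.

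Most genes held a single mark. Of the 512, 261 had 1 listed base, 180 had 2, 40 had 3 and 31 had 4 or more, and joining bases within 10 nt gave 621 runs. Ankhd1, an ankyrin-repeat protein, had the most, with 9 listed bases in 1 run. Hnrnpu, an RNA binding nuclear scaffold protein, had 7 bases in 4 runs: pairs with 10, 43 and 12 deletions and a single base with 14, spread from 468 to 6 nt before the end. The pair with 43 deletions, in 163 tags at its first base (26.4%, 19.8% to 33.8%), and the pair with 10 both stand in ATATAA. Serbp1 had 5 bases in 3 runs, and its internal ATATAA pair (102 deletions) stood above its last pair (9 and 10 deletions in 458 and 479 tags).

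Ribosomal protein genes with several sites differed in where the marks lay. Rpl13 had 5 bases in its last 9 nt, where the frame ends in adenosines: deletions went 107, 48, 11, 11 and 12 from 5' to 3', in 485, 536, 755, 811 and 854 tags. Rpl32 had 4 of 6 bases in the last 12 nt, with up to 43 deletions in 936 tags (4.59%, 3.34% to 6.14%), and a further pair of 18 deletions in a tyrosine codon near the start. Rplp0 had all 6 in the last 26 nt (9 to 20 deletions). Rpl8 and Rpl4 had 0 sites in the last 50 nt, with 7 bases in 5 runs and 6 in 5 runs spread along the frame. Rack1, the ribosomal scaffold, had 6 bases with 11 to 13 deletions, 3 of them in the last 50 nt. Reads of such genes can also match processed pseudogenes. The 41 nt around 16 coding sites in 11 genes, among them 2 bases of Rplp0 and 1 of Rpl4, occur in a transcript of another gene, and no source used here says how the authors placed such reads.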

How the data were processed

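The 3 CLIP-seq and 2 mRNA-seq samples of MEL cells were used. The deposited deletion list, pooled by the authors over the CLIP-seq samples, holds a count of tags with a deletion a base and a second number, read here as covering tags. The deposited peak list holds a score, read here as height in tags. The deposited RPKM are 1 value a gene. Tools named in the submitters' processing notes, without roles, are HTSeq 0.6.0, TopHat2 2.0.12, Novoalign 3.02.02 and cutadapt 1.4.2, with build mm10.

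Sites were placed by strand on GENCODE M21 basic transcripts (readthrough transcripts last, APPRIS principal first, then longest coding sequence). Python 3.11.15, pandas 2.3.3, SciPy 1.17.1 and Matplotlib 3.10.9 were used, and placement was tested on simulated sites. Of the sites, 882 (98.5%) lay in a peak. Lists, hexamers and members were chosen with earlier results of these data known. Genes named were the 12 with most deletions, 10 with most sites, 3 for each hexamer and each end of the frame, 5 by deleted share at 100 tags or more and up to 4 of each list. Genes with a site in the stop codon or a 2-base deletion of G and T, and classes of deletion event, were added after their values were seen, as were the splits of lists by RPKM, of deleted shares by zone and coverage, and of codons and residues by strand and placement. Alternatives were 1 site a run or gene, at least 10 deletions, sites in peaks, unique placement, other transcripts, windows and RPKM minima.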

Additional observations from a re-analysis of the deposited data

How the results depend on the processing

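Of 111 alternatives over 14 results, 77 stayed within the 95% interval of the reported value and 34 moved outside it, and none changed a direction against the expected share except for codon positions 1 and 3. Where the deleted base does not adjoin the same base, A and T codons held 46.2%, AATAAA lay near 3.94% and ATATAA near 35.2% of sites, and codon positions 1 and 3 held 28.7% and 41.7%. In settings added after seeing the data, A and T codons held 50.1% on the plus strand, 72.3% on the minus strand and 45.6% with deletions moved to the 5'-most equivalent base. Codon position 1 held 38.1%, 29.4% and 39.8% in these, and position 3 held 31.9%, 41% and 28.8%. ATATAA lay near 15.8% with 1 site a run, 17.4% with 1 site a gene and 28.0% with at least 10 deletions, where the last 50 nt held 28.8%. The added split by 3' UTR length gave 20.7% (at least 300 nt) and 30.9% (shorter) for the last 50 nt. A window of 10 nt gave 5.81% for AAAAAA, and one of 50 nt gave 13.0% for AAAAAA and 12.5% for AATAAA. With 1 site a gene the median deleted share was 18.7%. Genes with a coding site were 5.82% at RPKM of at least 5, 3.78% with no minimum and 2.86% with at least 10 deletions. Without bases in stop codons the coding share of the list was 7.29%. No paired analysis was possible because the authors pooled the replicates and no result comes from a test, and for the same reason no replicate could be left out. Coverage, from 3 to 4981 tags a site, limits the precision of single shares.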

Other observations

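A smaller group of coding deletions removed neither A nor T runs. In 17 events, in 16 genes, the missing pair was G and T. Of these, 0 lay near ATATAA, close to the 1.13% of all windows in coding sequences with sites. Rpl8 had 2 such pairs, with 19 deletions in 576 tags and 6 in 94, and Anxa7, an annexin, had 18 in 204. Mrpl37, a mitochondrial ribosomal protein, had 15 in 182.

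At 22 coding sites in 19 genes every covering tag carried the deletion. Between 3 and 11 tags covered them (median 3), and 0 of the 22 lay outside a peak or had a 41 nt window shared with another gene.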
